A study of Mus musculus with 6 samples.

Results

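A set of 10 genes usually grouped as secreted or membrane inhibitors of Wnt signaling, among them Dkk3, whose effect on the pathway is not always inhibitory, was examined in mouse embryonic fibroblasts (MEFs), connective tissue cells grown from mouse embryos, with and without the deubiquitinase gene Atxn3. They are the secreted frizzled-related genes Sfrp1, Sfrp2, Sfrp4 and Frzb, the dickkopf genes Dkk1, Dkk2 and Dkk3, and Wif1, Apcdd1 and Notum. The genes were taken by name, and every probe set whose platform annotation names only 1 of them was used, which gave 22 of the 45037 non-control probe sets on the array and 10 of the 18193 genes named by a probe set of their own. RNA was hybridized to 6 Affymetrix whole-genome mouse arrays, 3 from Atxn3-KO MEFs, which are labelled as knockout for Atxn3, and 3 from Atxn3-WT MEFs, with no treatment given in the labels. The methods describe the knockout and WT mice of the study as littermates and the 3 samples of each genotype as biological replicates. No source used here says that each replicate was its own embryo or culture. The p-values therefore cover the spread among these 6 samples and no more, and that spread may be technical. In bulk RNA of this kind, fewer cells of a type and less RNA per cell cannot be told apart.

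Wnt proteins are secreted lipid-modified ligands that bind frizzled receptors together with the co-receptors LRP5 and LRP6, and this binding stabilizes beta-catenin, which then acts with TCF/LEF factors on target genes. The secreted frizzled-related proteins carry a frizzled-like domain that binds Wnt ligands, and WIF1 also binds the ligands. DKK1 and DKK2 bind the co-receptors instead, NOTUM removes the lipid from the ligand, and APCDD1 is a membrane glycoprotein that inhibits the pathway at the cell surface. In embryonic mesenchyme these proteins help set where Wnt signals act, and several of them are themselves Wnt target genes.

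The values are log2 levels normalized by robust multi-array average (RMA), and each difference is Atxn3-KO minus Atxn3-WT from limma with Benjamini-Hochberg adjustment over all 45037 probe sets. A level compares arrays for 1 probe set and does not rank one gene against another. The brightest probe set of a gene is the one whose level, averaged over the 6 arrays, was highest. A probe set is called dim in a genotype where all 3 arrays lie below the lowest 25th percentile of any array, and a difference that involves a dim genotype is not exact. A probe set or gene is said to pass where its adjusted p is under 0.05, and only such changes are called higher or lower. The targeted gene read 3.60, 3.43 and 3.73 in Atxn3-KO MEFs, against 6.53, 6.81 and 6.66 in Atxn3-WT MEFs, for its brightest probe set. Marker genes were counted by the brightest probe set of each gene, by which 31.8% of all genes passed (17.1% higher and 14.7% lower). At an unadjusted p under 0.05, 4094 of the 18193 genes lay above and 3654 below. Of 14 fibroblast marker genes 64.3% passed, 4 as higher and 5 as lower. Col1a1 and Col5a1 did not pass by that probe set, but 1 of 2 and 2 of 3 of their probe sets passed as lower. None of the 14 was dim in both genotypes, and Lum was dim in Atxn3-WT MEFs. Thy1, a fibroblast surface marker, averaged 7.18 ± 0.08 in Atxn3-KO MEFs and 11.39 ± 0.02 in Atxn3-WT MEFs (SD, n = 3 each). The summed linear levels of the 14 fibroblast markers ran from 83110 to 86340 on Atxn3-KO arrays and from 89110 to 90560 on Atxn3-WT arrays. Dcn, which encodes the matrix proteoglycan decorin, had a difference of 1.91, and its other probe set, at 0.21, did not pass. Of 10 macrophage and leukocyte markers 0 passed in limma (at an unadjusted p under 0.05, 3 were above and 0 below), with Ptprc, Itgam and Aif1 dim in both genotypes, and their summed levels ran from 632 to 645 in Atxn3-KO MEFs and from 596.6 to 639.8 in Atxn3-WT MEFs. Of 10 epithelial markers 2 were higher and 0 were lower, with Cdh1 and Esrp1 dim in both genotypes, and their summed levels ran from 1471 to 1581 in Atxn3-KO MEFs and from 1202 to 1363 in Atxn3-WT MEFs. Of 10 endothelial markers 1 was higher and 4, among them Tek and Vwf, were dim in both genotypes, with sums of 960 to 995.2 in Atxn3-KO MEFs and 850.1 to 917.6 in Atxn3-WT MEFs. Of 10 skeletal muscle markers 0 passed (0 at an unadjusted p under 0.05), of 9 neural markers 2 were higher and 3 lower, and of 8 cartilage and bone markers 2 were higher. Des, a muscle marker, passed as higher by its other probe set, at 0.27. Csf1r, a macrophage marker, passed as higher by 1 of its 3 probe sets, which ran from -0.037 to 0.22. The part of cell makeup in the results that follow was not tested.

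The 10 genes differed in direction. At the strict thresholds of the methods, an adjusted p no higher than 0.001 together with a 2-fold or larger change, Atxn3-KO MEFs had 8 of the 22 probe sets higher and 2 lower, where 1.31% of all probe sets passed (0.795% higher and 0.515% lower). The 8 belonged to Sfrp1 and Apcdd1 and the 2 to Dkk3. By the brightest probe set of each gene, 2 of the 10 genes were higher and 1 was lower at these thresholds, beside 1.93% of all genes (1.28% higher and 0.649% lower). At an adjusted p under 0.05 alone, 13 probe sets were higher and 5 lower, with 4 not passing, against 26.0% of all probe sets passing (12.5% higher and 13.5% lower). Counted by the brightest probe set of each gene, Sfrp1, Sfrp2, Sfrp4 and Apcdd1 were higher, Frzb, Dkk2 and Dkk3 were lower, and Dkk1, Wif1 and Notum did not pass, while 31.8% of all genes passed (17.1% higher and 14.7% lower). The median log2 difference of the 10 genes was 0.14, beside 0.0021 over all 18193 genes. The groups did not overlap for 19 of the 22 probe sets, against 41.1% of all probe sets, and for 8 of the 10 genes by their brightest probe set, against 49.2% of all genes. Of the 22 probe sets 3 were dim in both genotypes.

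**Figure D1:**
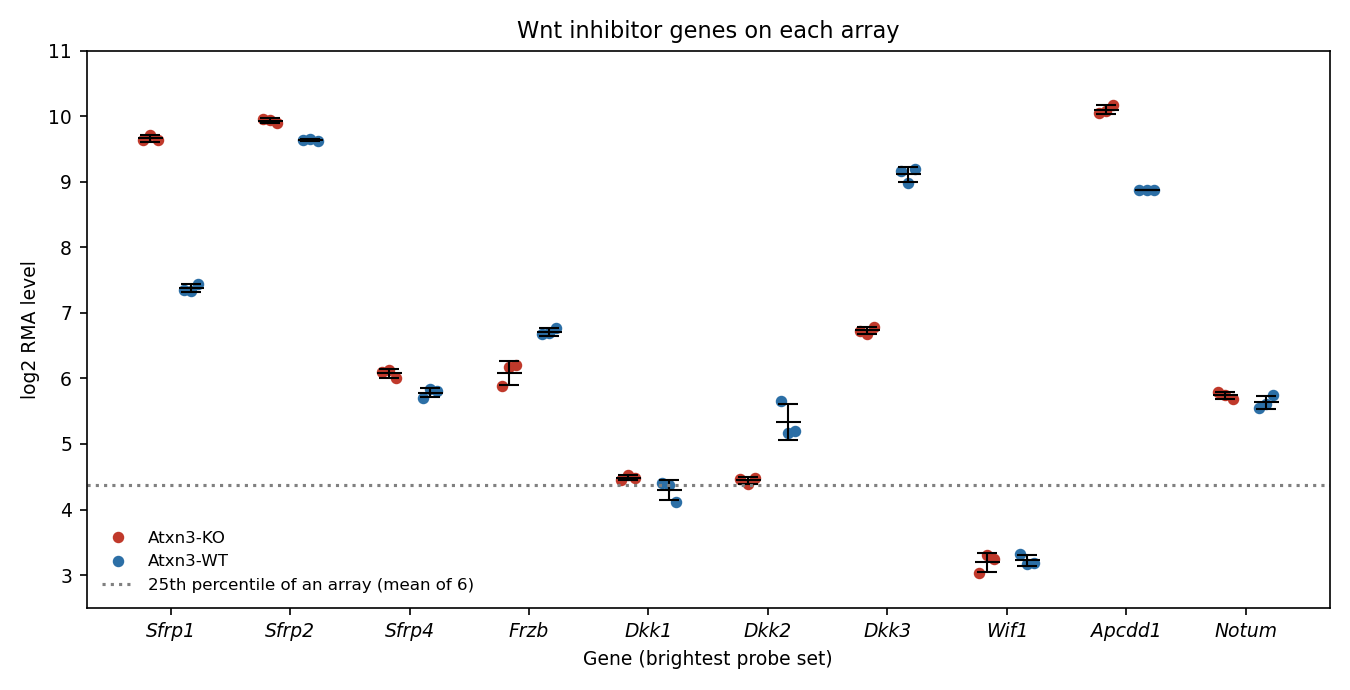
Log2 RMA level (vertical axis) of the brightest probe set of each of the 10 genes, with Atxn3-KO arrays in red and Atxn3-WT arrays in blue; points are arrays, bars are mean ± SD (n = 3), and the dotted line is the mean 25th percentile of the arrays. Sfrp1 and Apcdd1 lie higher and Dkk3 lies lower in Atxn3-KO MEFs by over 1 on the log2 scale, and Wif1 lies below the dotted line on all 6 arrays.

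Among the secreted frizzled-related genes, Sfrp1 rose in all 5 of its probe sets. Its brightest probe set (1428136_at) read 9.64, 9.72 and 9.63 in Atxn3-KO MEFs, against 7.36, 7.33 and 7.45 in Atxn3-WT MEFs. The 3 Atxn3-KO arrays stood over 2 log2 units above the 3 Atxn3-WT arrays, and the difference was 2.28 (standard error 0.051, adjusted p = 5.83e-07 from limma), or 4.87-fold. It was the 23rd highest difference among the 18193 genes. The probe set with the highest difference (1460187_at) read 8.44, 8.50 and 8.42 in Atxn3-KO MEFs, against 5.88, 5.72 and 5.75 in Atxn3-WT MEFs. This is a difference of 2.67 (95% interval 2.53 to 2.80, adjusted p = 4.48e-07), or 6.35-fold, and it was the highest of all 22 probe sets.

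The size of the Sfrp1 change differed between its probe sets. Probe set 1448395_at had a difference of 2.27 (95% interval 2.08 to 2.45) and 1416594_at had 1.51 (95% interval 1.39 to 1.63). These and 1460187_at are annotated to the same target sequence, so the 3 are not separate measurements of the gene. The lowest value was that of 1438620_x_at, which read 7.65, 7.63 and 7.57 in Atxn3-KO MEFs, against 6.67, 6.66 and 6.80 in Atxn3-WT MEFs, a difference of 0.91 (95% interval 0.78 to 1.04). An x in the name marks a probe set whose probes may match other transcripts. The intervals of 0.91, 1.51 and 2.67 do not overlap, and the reason for the spread was not tested. All 5 were higher in Atxn3-KO MEFs in every alternative fit.

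Sfrp2 and Sfrp4, which have 1 probe set each, rose by a small amount. Sfrp2 read 9.96, 9.95 and 9.89 in Atxn3-KO MEFs, against 9.63, 9.66 and 9.62 in Atxn3-WT MEFs. Sfrp4 read 6.10, 6.13 and 6.0 in Atxn3-KO MEFs, against 5.71, 5.83 and 5.81 in Atxn3-WT MEFs. The groups were separate for both genes, with differences of 0.30 (standard error 0.043, adjusted p = 0.00223) for Sfrp2 and 0.29 (standard error 0.056, adjusted p = 0.00778) for Sfrp4 from limma. Both equal a 1.23-fold change, under the 2-fold threshold.

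Frzb, which encodes the family member also called SFRP3, fell, while Sfrp1, Sfrp2 and Sfrp4 rose. Sfrp5, a further family member that is not among the 10 genes, had -0.12 (adjusted p = 0.141 from limma) and did not pass. The brightest Frzb probe set (1416658_at) read 5.88, 6.17 and 6.20 in Atxn3-KO MEFs, against 6.67, 6.69 and 6.78 in Atxn3-WT MEFs. Atxn3-KO replicate 1 was the lowest array, and without it the other Atxn3-KO arrays still lay below every Atxn3-WT array. The difference was -0.63 (standard error 0.089, adjusted p = 0.00200 from limma). The other Frzb probe set (1448424_at), annotated to the same target, was dim in both genotypes, with a difference of -0.39 (adjusted p = 0.0330). Its call was lost when any of 4 arrays was left out, among them Atxn3-WT replicate 1 (-0.36, adjusted p = 0.102) and Atxn3-KO replicate 3 (-0.29, adjusted p = 0.0671), and also without Atxn3-WT replicate 3 (-0.35, adjusted p = 0.0995) or Atxn3-KO replicate 2 (-0.40, adjusted p = 0.0750).

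No dickkopf probe set was higher. Of the 5, 3 were lower and 2 did not pass in limma, while 12.5% of all probe sets were higher and 13.5% lower. At an unadjusted p under 0.05 the counts were 0 higher and 3 lower, beside 7733 and 8748 of all 45037. Of the 3 lower, 2 belonged to Dkk3. Dkk3, the divergent member of the family, whose effect on Wnt signaling differs between cell types, had the largest decrease of the 10 genes. Its brightest probe set (1417312_at) read 6.73, 6.68 and 6.79 in Atxn3-KO MEFs, against 9.16, 8.98 and 9.20 in Atxn3-WT MEFs. The groups lay over 2 log2 units apart, with a difference of -2.38 (standard error 0.066, adjusted p = 1.34e-06 from limma). That is 5.20-fold lower in Atxn3-KO MEFs and the 12th lowest difference of the 18193 genes. The other Dkk3 probe set (1448669_at), annotated to the same target, read 6.49, 6.51 and 6.76 in Atxn3-KO MEFs, against 8.71, 8.66 and 8.84 in Atxn3-WT MEFs. Its difference was -2.15 (95% interval -2.34 to -1.95), and this interval overlaps that of the first, -2.53 to -2.22.

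Dkk2, which encodes a ligand of the LRP5 and LRP6 co-receptors, fell toward the bottom of the array's range. It read 4.46, 4.39 and 4.48 in Atxn3-KO MEFs, against 5.66, 5.16 and 5.20 in Atxn3-WT MEFs. The Atxn3-WT arrays were more spread, with replicate 1 the highest, and none overlapped the Atxn3-KO arrays. The mean level was 4.44 ± 0.05 in Atxn3-KO MEFs and 5.34 ± 0.28 in Atxn3-WT MEFs (SD, n = 3 each), a difference of -0.90 (standard error 0.13, adjusted p = 0.00201 from limma). The Atxn3-KO mean stood at the 26.3rd percentile of the array values, close to the level called dim. Leaving out each array in turn gave -0.99 to -0.74.

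Dkk1, the classical secreted Wnt antagonist, was near the bottom of the range in both genotypes. Its brighter probe set read 4.44, 4.52 and 4.49 in Atxn3-KO MEFs, against 4.40, 4.37 and 4.12 in Atxn3-WT MEFs. The groups did not overlap, yet the difference of 0.18 (95% interval -0.00069 to 0.37, adjusted p = 0.138 from limma) did not pass the threshold. The dimmer one read 3.32, 3.37 and 3.08 in Atxn3-KO MEFs, against 3.15, 3.05 and 3.28 in Atxn3-WT MEFs, with overlapping groups.

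RefSeq windows before the transcription start (build GRCm38.p6) matched 5 of the 10 genes, Sfrp2, Frzb, Dkk1, Dkk2 and Wif1, and the window of Sfrp2 held no base outside the annotated gene. Windows of Frzb and Dkk2, which fell, and of Dkk1, a known Wnt target that did not pass, are shown 5′ to 3′ on the strand of the gene, without any base inside the annotated gene. Capitals mark the core of the TCF/LEF motif, CTTTGA or its reverse TCAAAG, and the core of the TATA box, TATAAA or its reverse TTTATA. They lie at chr2:80447397-80447646 (minus strand) for Frzb, chr19:30549497-30549746 (minus strand) for Dkk1 and chr3:132085042-132085265 (plus strand) for Dkk2.
Frzb: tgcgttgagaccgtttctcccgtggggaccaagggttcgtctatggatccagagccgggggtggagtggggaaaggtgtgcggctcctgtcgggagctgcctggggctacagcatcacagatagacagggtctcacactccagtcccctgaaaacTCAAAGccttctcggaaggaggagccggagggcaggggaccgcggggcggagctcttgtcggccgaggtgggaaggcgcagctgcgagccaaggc
Dkk1: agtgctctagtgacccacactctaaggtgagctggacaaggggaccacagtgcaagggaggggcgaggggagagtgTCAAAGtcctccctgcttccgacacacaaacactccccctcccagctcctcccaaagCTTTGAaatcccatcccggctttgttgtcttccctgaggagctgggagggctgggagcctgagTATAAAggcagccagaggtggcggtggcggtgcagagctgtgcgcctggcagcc
Dkk2: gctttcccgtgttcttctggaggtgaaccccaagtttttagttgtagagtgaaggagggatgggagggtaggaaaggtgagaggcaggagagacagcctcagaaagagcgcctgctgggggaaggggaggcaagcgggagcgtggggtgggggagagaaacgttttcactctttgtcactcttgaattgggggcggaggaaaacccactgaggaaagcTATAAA
The Frzb window held 1 TCF/LEF core, beginning 95 bases before the start, and no TATA core. The Dkk1 window held 2 TCF/LEF cores, at 174 and 117 bases, and 1 TATA core at 54 bases. The Dkk2 window held no TCF/LEF core and 1 TATA core at 32 bases. Distances count from the end of the full window of 250 bases. The Dkk2 letters shown are cut to the 224 bases outside the annotated gene, so the TATA core ends them. Over 32851 windows of 250 bases, searched on both strands, 13.8% held the TCF/LEF core and 12.4% the TATA core. A match is a description of the letters and not a measured binding site.

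Apcdd1, which encodes the membrane inhibitor of Wnt signaling, rose in all 6 of its probe sets. Its brightest probe set (1449070_x_at) read 10.05, 10.07 and 10.18 in Atxn3-KO MEFs, against 8.87, 8.87 and 8.88 in Atxn3-WT MEFs. The difference was 1.23 (standard error 0.048, adjusted p = 5.37e-06 from limma), or 2.34-fold, the 155th highest among the 18193 genes. Probe set 1418383_at, annotated to the same target as this one and 1418382_at, had the highest difference, 1.32 (95% interval 1.19 to 1.44). A group of 4 probe sets, these 3 and 1454822_x_at, had differences between 1.16 and 1.32 with overlapping intervals. In the paper's real-time PCR of MEFs, Apcdd1 had no significant change, and its estimate lay slightly on the lower side in Atxn3-KO MEFs. By the same PCR, Sfrp1 was significantly higher and Dkk3 significantly lower in Atxn3-KO MEFs. The rise of Apcdd1 is therefore a result of the array only.

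The other 2 Apcdd1 probe sets had smaller differences. Probe set 1437604_x_at read 8.07, 8.15 and 7.96 in Atxn3-KO MEFs, against 7.81, 7.69 and 7.70 in Atxn3-WT MEFs, a difference of 0.33 (95% interval 0.18 to 0.48, adjusted p = 0.00842 from limma). Probe set 1443639_at, dim in Atxn3-WT MEFs, had 0.38 (adjusted p = 0.0200). Leaving out Atxn3-WT replicate 1 or 3, or Atxn3-KO replicate 1 or 3, ended that last call, with adjusted p-values of 0.0578, 0.0665, 0.0633 and 0.0633 in that order. The interval of 1437604_x_at does not reach those of the 4 probe sets with larger differences.

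**Figure D2:**
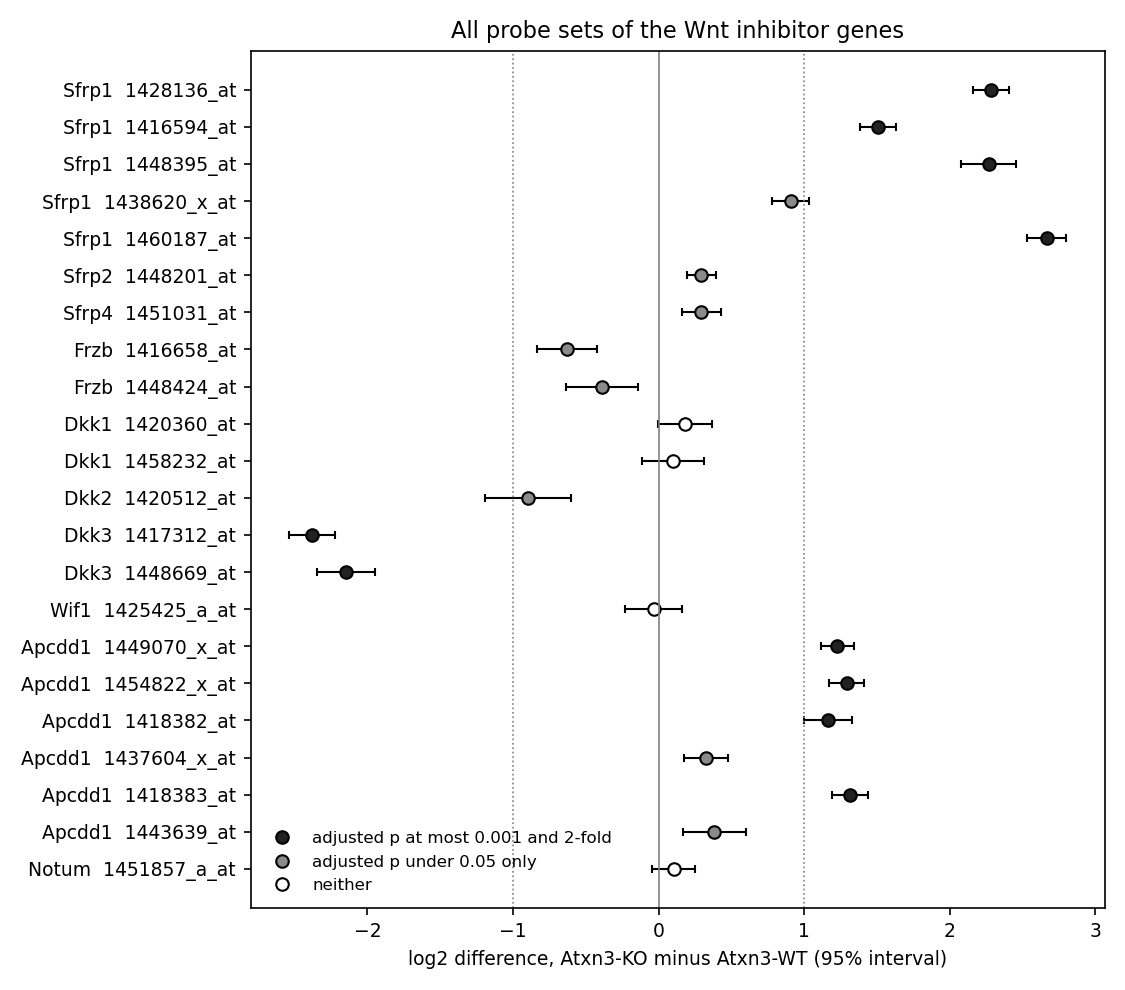
Log2 difference, Atxn3-KO minus Atxn3-WT (horizontal axis), of all 22 probe sets with 95% intervals from limma; black points passed the strict thresholds, grey points passed an adjusted p of 0.05 only, white points passed neither, and dotted lines mark a 2-fold change. The 5 Sfrp1 and 6 Apcdd1 probe sets lie right of 0 and the Frzb, Dkk2 and Dkk3 probe sets lie left of it.

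Wif1 and Notum did not pass the threshold. Wif1, a secreted protein that binds Wnt ligands, read 3.03, 3.31 and 3.24 in Atxn3-KO MEFs, against 3.33, 3.17 and 3.19 in Atxn3-WT MEFs, and was dim in both genotypes. At these levels, at the 2.63rd percentile in Atxn3-KO MEFs and the 3.03rd in Atxn3-WT MEFs, a difference in transcript could not be read. Notum, the secreted enzyme that removes the lipid of Wnt ligands, read 5.79, 5.75 and 5.68 in Atxn3-KO MEFs, against 5.55, 5.61 and 5.75 in Atxn3-WT MEFs. The groups overlapped, and the difference was 0.10 (95% interval -0.043 to 0.25, adjusted p = 0.287 from limma), so that a change of 2-fold in this probe set's level lies outside the interval.

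Other inhibitors of the pathway were counted by the brightest probe set of each gene, by which 31.8% of all genes passed (17.1% higher and 14.7% lower). Unadjusted counts, here and for the lists that follow, stand beside 4094 of the 18193 genes above and 3654 below. Of 8 further secreted antagonists 0 were higher and 1 was lower in limma (0 and 2 unadjusted), a share of 12.5%, with a median difference of -0.11. The one was Igfbp4, an insulin-like growth factor binding protein that also inhibits Wnt signaling, which read 9.62, 9.66 and 9.66 in Atxn3-KO MEFs, against 10.86, 10.86 and 10.81 in Atxn3-WT MEFs. Its difference was -1.20 (standard error 0.042, adjusted p = 3.35e-06), and its 6 probe sets ran from -1.31 to -0.47, each passing. Of 8 inhibitors grouped here as receptor-level, though not all act on the receptors themselves, 0 were higher and 1 was lower (1 and 3 unadjusted). The lower one was Tpbg, a membrane protein that interferes with LRP6, with -0.20 (adjusted p = 0.0123). Among 18 intracellular inhibitors, 6 were higher and 4 were lower, or 55.6%, with a median of 0.040. Csnk1a1, Gsk3b and Btrc did not pass by the brightest probe set. Of their probe sets, 2 of 5, 1 of 6 and 1 of 5 passed as lower, and none as higher. Tle1 and Tle2, Groucho-type corepressors that bind TCF/LEF factors, had 1.07 (standard error 0.054) and 0.56 (standard error 0.086), and Dact1, which binds Dishevelled, had -0.68 (standard error 0.045).

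Ligands and receptors were counted in the same way. Of 19 Wnt ligand genes, 0 were higher and 7 were lower by the brightest probe set in limma (1 and 7 unadjusted, and 1 higher with array weights). That is 36.8%, beside 31.8% of all genes (17.1% higher and 14.7% lower). A second Wnt4 probe set, at 0.21, passed as higher, and the median over the 19 was 0.0040. Wnt10a read 6.59, 6.28 and 6.21 in Atxn3-KO MEFs, against 7.11, 7.35 and 7.57 in Atxn3-WT MEFs. Wnt5a, a ligand of beta-catenin-independent signaling, read 7.82, 7.86 and 7.92 in Atxn3-KO MEFs, against 8.80, 8.79 and 8.86 in Atxn3-WT MEFs. The groups were separate for both ligands and for Wnt6, which had -0.96 (standard error 0.073). Of the 4 Wnt5a probe sets 3 passed, with the range over all 4 from -1.07 to -0.21. For receptors and co-receptors the counts were 6 higher and 4 lower of 16, or 62.5%, with a median of 0.0048. Fzd1 had the largest difference, 0.87 (standard error 0.054), ahead of Fzd8 with 0.37 and Ror2, a receptor for WNT5A, with 0.32. The other probe sets of Fzd1, at 0.21, Fzd8, at 0.085, and Ror2, at 0.20, did not pass. Ror1 did not pass by its brightest probe set, at -0.063, but 1 of its 3 probe sets, which ran from -0.063 to 0.55, passed as higher.

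Among the 7 R-spondin genes and their receptors, which oppose the clearance of frizzled receptors and so enhance Wnt signals, 3 were higher and 0 were lower from limma (3 and 1 unadjusted). That is 42.9%, beside 31.8% of all genes (17.1% higher and 14.7% lower). Rspo3 read 7.87, 7.93 and 7.89 in Atxn3-KO MEFs, against 6.84, 6.85 and 6.85 in Atxn3-WT MEFs, a difference of 1.05 (standard error 0.041, adjusted p = 5.31e-06). Its other probe set had 0.056 and did not pass. Rspo2 did not pass by its brightest probe set, at -0.037, whereas its other probe set, at 1.14, passed as higher. Lgr4 and Lgr6, receptors for R-spondins, had 0.60 (standard error 0.045) and 0.41 (standard error 0.047). The other Lgr4 probe set, at 0.066, did not pass. Of 5 genes for Wnt secretion, 1 was higher and 2 were lower, or 60.0%. Wls, the carrier of Wnt proteins to the surface, had 0.30 (standard error 0.045), and Tmed5 and Vps35 had -0.29 and -0.15.

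Downstream of the receptors, 13 genes that transmit the beta-catenin signal were measured. In limma 1 was higher and 1 was lower (4 and 2 unadjusted), 15.4% against 31.8% of all genes. With a filter at the median level 4 were higher and 2 lower of the 10 then left, so the 15.4% depends on that setting. The filter keeps only probe sets at or above the median level, and 12244 of those passed, against 11696 of all 45037. The 31.8% is therefore not the background of the filtered count. The low share also rests on the brightest probe sets. Ctnnb1, which encodes beta-catenin, passed as lower by 1 of its 3 probe sets, which ran from -0.24 to -0.011. The other Dvl1 probe set, at 0.32, passed as higher. Tcf7l2, a TCF factor, had -0.64 (standard error 0.042), with all 4 of its probe sets lower, and Lef1 had 0.42 (standard error 0.071), with another probe set at 0.12 that did not pass. Of 13 Wnt target genes 3 were higher and 2 were lower, with a median of 0.023. Ccn5, a matricellular gene, had 2.18 and Ccnd1, cyclin D1, had -0.48. Axin2, a general feedback target of beta-catenin chosen here after its values were seen, read 6.20, 6.36 and 6.13 in Atxn3-KO MEFs, against 6.17, 6.38 and 6.26 in Atxn3-WT MEFs. The groups overlapped, with a difference of -0.040 (95% interval -0.22 to 0.14, adjusted p = 0.762).

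Genes of the heparan sulfate chains that hold Wnt ligands and secreted frizzled-related proteins at the cell surface were counted last. Of 14 such genes 8 were higher, 2 lower and 4 not passing in limma, 71.4% beside 31.8% of all genes (17.1% higher and 14.7% lower), and the median was 0.19, beside 0.0021 over all genes. Sdc1 and Ext2 did not pass by the brightest probe set, but 1 of 4 Sdc1 probe sets passed as higher and 1 of 3 Ext2 probe sets as lower. Sulf1, an extracellular enzyme that removes sulfate groups from heparan sulfate, read 8.32, 8.45 and 8.50 in Atxn3-KO MEFs, against 6.05, 6.63 and 6.55 in Atxn3-WT MEFs. Atxn3-WT replicate 1 was the lowest and no groups overlapped, with a difference of 2.01 (standard error 0.14, adjusted p = 9.34e-05). Its 3 probe sets ran from 0.13 to 2.03, and 2 of them passed. Sdc3, a syndecan, had 1.03 (standard error 0.062), and 2 of its 3 probe sets passed, the lowest of the 3 being 0.094. Gpc2, a glypican, had 0.76 (standard error 0.12).

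**Figure D3:**
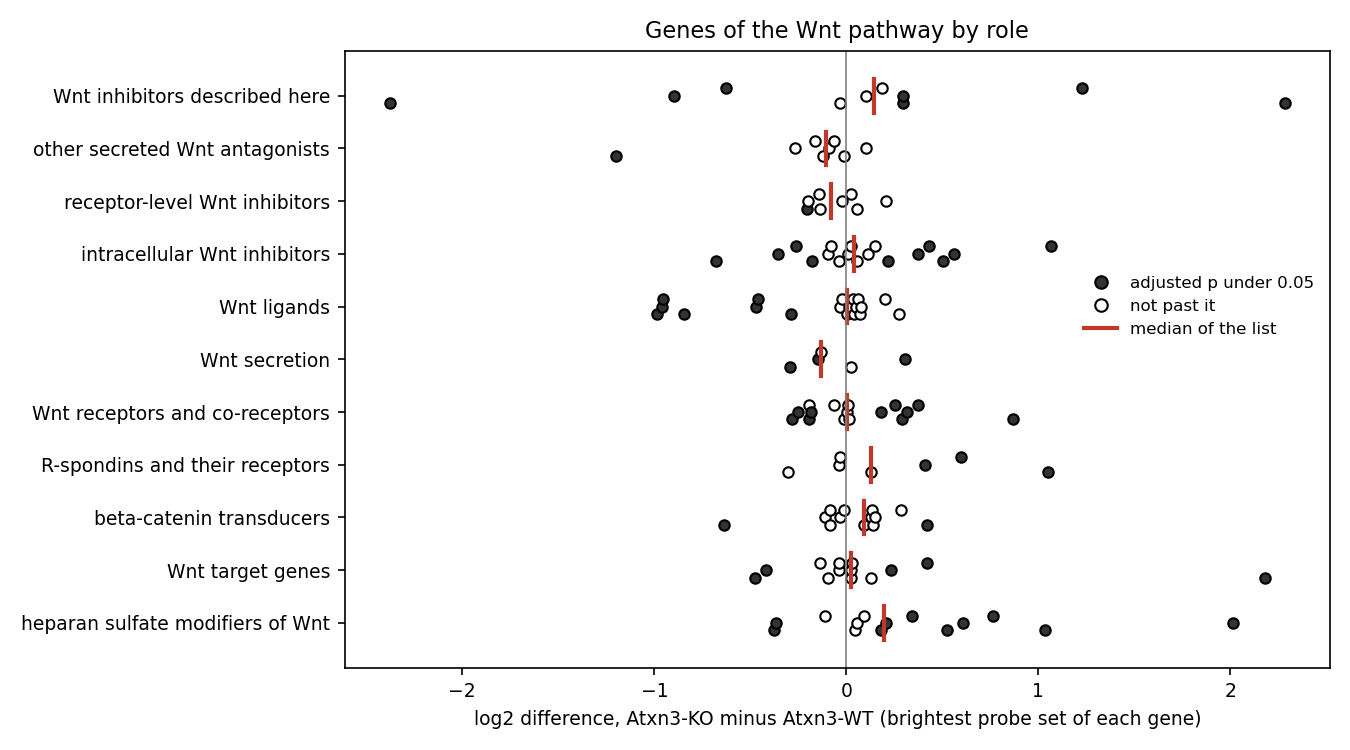
Log2 difference, Atxn3-KO minus Atxn3-WT (horizontal axis), of genes of the Wnt pathway grouped by role (rows); each point is the brightest probe set of 1 gene, filled where it passed in limma, and red bars are medians of the lists. The 10 genes described here run from -2.38 for Dkk3 to 2.28 for Sfrp1, while the filled Wnt ligands all lie left of 0.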

How the data were processed

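The authors deposited 1 table of log2 values for 45101 probe sets, 1 column per array, which the methods and the submitters' processing notes describe as normalized by RMA (background correction, quantile normalization and summary of probes), with no tool versions given. Quantile normalization makes the arrays' distributions alike, and would hide any change in level shared by all transcripts. From these values, limma 3.58.1 in R 4.3.3 fitted Atxn3-KO minus Atxn3-WT (lmFit and eBayes) with equal array weights, because the authors do not name the weights they used. The 64 control probe sets were left out, no level filter was used, and Benjamini-Hochberg adjustment covered 45037 probe sets. In the platform annotation 34945 of them carry 1 gene symbol, 932 carry several and 9160 carry none, and only the first kind was used for genes. All 10 members matched the RefSeq table of GRCm38.p6. The members and gene lists were chosen with earlier results of these data known, so counts over them are descriptions. Genes named from each list were up to 3 with the largest change among those passing. The fit was tested on simulated data. Alternatives were array weights, a replicate block, normalization, filter and variance choices, the choice of probe set and each array dropped in turn. Precision is limited by having 3 arrays a genotype. No 2 arrays were copies, with at most 0.386% of values exactly equal.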

Additional observations from a re-analysis of the deposited data

How the results depend on the processing

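The directions of the 18 member probe sets past an adjusted p of 0.05 were the same in every alternative fit, and 290 values of single probe sets stayed on their side of the threshold while 10 did not, those 10 being those of Frzb 1448424_at and Apcdd1 1443639_at. The 8 higher and 2 lower probe sets past the strict thresholds became 3 and 1 with an unmoderated linear model, under which 148 in place of 590 of all probe sets passed, and 5 were higher under limma's treat at 2-fold. The 5 lower probe sets at an adjusted p under 0.05 became 3 with a filter at the median level, since 14 of the 22 then remained. The replicate numbers shared by the genotypes were not used as pairs in the main fit. Deviations of same-numbered arrays correlated at 0.021, -0.023 and -0.036. Such values show no shared deviation but cannot tell whether the samples were paired by litter or handling. With a replicate block the counts at the strict thresholds were 8 and 2, and those at 0.05 were 13 and 5. Without each array in turn the strict counts were 8 and 2 throughout, the counts at 0.05 were 12 to 13 higher and 4 to 5 lower, and by gene 4 higher and 3 lower. For lists, the block left 2 of 4 lower intracellular inhibitors, 2 of 4 lower receptors and 1 of 2 lower secretion genes (also 1 with median centring). Higher transducers numbered 2 with the block or quantile normalization and 4 with the level filter, in place of 1, and lower ones 2 with the filter, in place of 1. Lower receptor-level inhibitors numbered 2 with array weights or the filter, in place of 1, and higher ones 1 with the filter, in place of 0. Over all probe sets kept by the filter 12244 passed, in place of 11696 of 45037 without it. The causes were not tested. No scan dates or batches were analysed here, and levels near the 25th percentile limit what can be read for Dkk1, Dkk2 and Wif1.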

Other observations

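Genes whose 6 array values lay closest to those of a member, each set minus its Atxn3-WT mean, were found by root mean square distance over 6 arrays among 11461 genes at or above the median level. For the Sfrp1 probe set with the highest difference (1460187_at) these were Col6a3, a chain of microfibrillar collagen, at 0.0629, Mdk, the growth factor midkine, at 0.0951, and Serpinb1a, an intracellular protease inhibitor, at 0.110. Their log2 differences were 2.67, 2.77 and 2.79 in that order. For the Dkk3 probe set with the lowest difference (1417312_at) they were Vstm5 at 0.119, Coch, an extracellular protein of the inner ear, at 0.150, and Eya1, a transcriptional coactivator and phosphatase of developing organs, at 0.177. Their log2 differences were -2.30, -2.27 and -2.17 in that order. The distance takes in the size of the difference between genotypes by its construction.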
